A study of Homo sapiens with 8 samples.

Results

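The ELF1 peak list of DU145 cells holds 256 regions, out of 24078 in the 7 deposited lists of the series. All of them are described here against the 2478 GABPA peaks of the same cell line, and a pair of peaks counts as shared when the intervals overlap by at least 1 bp. Both lists come from chromatin immunoprecipitation followed by sequencing (ChIP-seq), in which an antibody pulls down the DNA that a factor is bound to. DU145 is an epithelial line from a human prostate cancer. It was grown in serum-supplemented medium, and the labels mention puromycin for selected cells without saying which samples were selected. The labels name no other treatment and no genetic change for the ELF1, GABPA, ETS1, ELK4 or JUND samples, and PANC1, a pancreatic cancer line, was used for 1 further ETS1 sample. No factor has a replicate, so every interval and p-value speaks of peaks within 1 sample each and says nothing of how cultures vary.

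ELF1 and GABPA both belong to the ETS family of transcription factors, whose DNA-binding domain recognises sites with a GGAA core. GABPA binds DNA together with its partner GABPB and is known for promoters of broadly expressed genes, including nuclear genes for mitochondrial proteins. ELF1 is best known from blood cells, where it acts at genes of the T cell lineage, and from endothelial cells, but it is also made in many other tissues. ETS1 and ELK4 are further family members. ELK4 works with serum response factor at genes that respond to growth signals, and JUND is a subunit of AP-1, which binds a different motif.

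The lists carry no score or read count, so depth is unknown, and peaks could be ordered only by their line number, whose meaning no source gives. Interval widths hardly separated the lists compared first, with medians of 495.5 bp for ELF1 and 497 bp for GABPA. Counting intervals below are 95% Clopper-Pearson intervals and cover counting error only.

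GABPA was found at 133 of the 256 ELF1 peaks, or 52.0% (45.6 to 58.2%). As a background, 24.6% of all peaks of the second DU145 ETS1 list met a GABPA peak. It pools all lines of that list, so it is not matched to the ELF1 peaks. Among ETS1 peaks without ELF1 the share was 49.3% in the earliest of 5 equal parts of that list and 3.78% in the last. The remaining 123 ELF1 peaks fell into unequal classes. Of these, 107 (41.8% of the list, 35.7 to 48.1%) lay in at least 1 of the DU145 ETS1 lists, and 16 (6.25%, 3.61 to 9.95%) lay in neither. In the other direction 133 of 2478 GABPA peaks held an ELF1 peak, which is 5.37% (4.51 to 6.33%). Each shared ELF1 peak met exactly 1 GABPA peak, so the 133 pairs are separate sites. The reverse share cannot be large, since a list of 256 peaks can reach only a small part of 2478. Cutting the GABPA list to its first 256 lines lowered the share of ELF1 peaks with GABPA to 10.2%, so the value of 52.0% belongs to the full list.

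The ETS1 lists divided the classes further. Among ELF1 peaks with GABPA, 128 lay in both ETS1 lists, 3 in the first alone and 2 in neither. Most GABPA peaks lay in the ETS1 lists with or without ELF1. Of the 2345 GABPA peaks without ELF1, 95.7% met the first ETS1 list and 91.9% the second. Of the 133 with ELF1, 98.5% and 97.0% did. Of the 107 peaks with ETS1 and no GABPA, 93 lay in both lists, 12 in the first alone and 2 in the second alone. The first list holds wide regions, with a median of 1173 bp, and the second holds windows with a median of 497 bp. When only the second list was counted, the class with neither GABPA nor ETS1 grew from 16 to 28 peaks, and it held 33 when centres had to lie within 200 bp.

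Both ELF1 peaks with GABPA but no ETS1 were tightly centred on the GABPA peak. The first, chr10:135333741-135334232 (hg19, as for every position here), had its centre 35.5 bp from a GABPA centre, and the nearest centre of the second ETS1 list lay 126142.5 bp away. The other, chr3:42003480-42003979, lay 49.5 bp from its GABPA centre and 51644 bp from the nearest centre of the first ETS1 list. They stood on lines 1916 and 1662 of the GABPA list, in its later part.

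Shared sites were close to concentric. The distance between the ELF1 and GABPA centres had a median of 65.5 bp, with quartiles of 28 and 119.5 bp and a maximum of 489 bp. It was at most 50 bp at 55 sites, at most 100 bp at 89 and at most 200 bp at 123 of the 133. The median overlap was 427 bp. Beside this, ELF1 centres lay a median of 75.8 bp from the second ETS1 list where GABPA was present (128 peaks) and 67 bp where it was not (95 peaks). Interval windows of about 500 bp limit how far apart overlapping centres can be, so these distances have a ceiling set by the overlap itself.

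**Figure D1:**
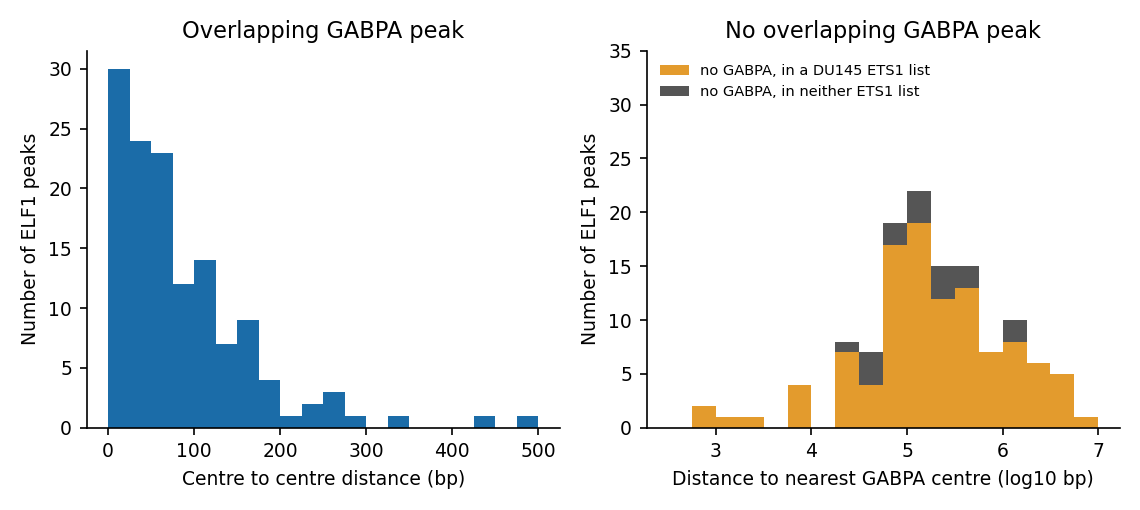
Left, the distance in bp between the centre of each of the 133 shared ELF1 peaks and its GABPA peak, in bins of 25 bp; right, the distance from the 123 other ELF1 peaks to the nearest GABPA centre on a log10 axis, coloured by ETS1 class. Shared centres pile up below 200 bp, while almost all other ELF1 peaks lie more than 10000 bp from GABPA.

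Few ELF1 peaks were near the edge of the overlap rule. Just inside it, the peak at chr7:39989335-39989829 shared 9 bp with its GABPA peak and the one at chr1:151254332-151254828 shared 59 bp. Just outside, chr1:222885807-222886307 missed a GABPA interval by 142 bp and chr11:64085456-64085940 by 195 bp. The next, chr19:42388088-42388572, was already 667 bp away. Of the 107 ELF1 peaks with ETS1 and no GABPA, 4 had a GABPA centre within 2000 bp, 8 within 10000 bp and 36 within 100000 bp, with a median distance of 168970.5 bp. For the 16 peaks in neither ETS1 list the nearest GABPA centre was never closer than 25707 bp. Windows that barely missed each other thus made up few of the ELF1 peaks without GABPA.

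The farthest from GABPA was the first line of the ELF1 list, chr21:9825862-9826362. Its nearest GABPA centre on the chromosome was 9059120.5 bp away. It met line 87 of the first ETS1 list and line 9 of the ELK4 list, but no peak of the second ETS1 list, whose nearest centre was 142344 bp off. So 3 lists held this site among their earlier lines and GABPA did not hold it at all. Whether the position lies in repeated sequence was not examined, since no hg19 genome was used here, and this limits what the site can be read as. The next farthest were chr1:197170105-197170603 at 4754317.5 bp and chr6:84568965-84569449 at 3730611.5 bp, both in both ETS1 lists.

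Among the first lines of the ELF1 list the classes were mixed. The first 10 lines with GABPA were 2, 3, 4, 6, 7, 10, 12, 13, 15 and 17. The first of them, chr9:97021401-97021891, stood on line 2393 of 2478 in the GABPA list, near its end, but on lines 175 and 380 of the ETS1 lists. By contrast, chr17:79633452-79633942 was on line 13 for ELF1 and line 77 for GABPA, with centres 2 bp apart, and it also met an ETS1 peak of PANC1. At chr6:31926674-31927170, ELF1 line 10 met GABPA line 166 at 11 bp. At chr19:42363649-42364148, line 7 met GABPA line 273 and stood on lines 178 and 164 of the ETS1 lists. Another site on early lines of the ETS1 lists was chr1:151138226-151138715, ELF1 line 12, with ETS1 lines 19 and 12 and GABPA line 217.

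The others of these 10 sat at various places in the GABPA list. They were chrX:77359268-77359754 (GABPA line 1471), chr10:104503227-104503717 (line 1652), chr18:3261761-3262260 (line 552), chr17:80408358-80408847 (line 2323) and chr19:45004346-45004835 (line 895). An early line for ELF1 thus went with early, middle and late lines for GABPA.

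The first 10 lines with ETS1 and no GABPA were 1, 5, 8, 9, 11, 14, 16, 18, 19 and 21. At chr16:790813-791310, line 5, the ETS1 lines were 649 and 1179 and GABPA lay 19858.5 bp away. A site with later ETS1 lines followed at chr8:21966769-21967269, line 8, with ETS1 lines 3594 and 5184. Line 9 was chr16:87425480-87425974 and line 11 chr20:33734817-33735315, the latter on ETS1 lines 925 and 804. Line 14, chr2:241500220-241500700, also met a PANC1 ETS1 peak, and line 19, chr12:64615731-64616229, a JUND peak. Line 18, chr18:11851137-11851637, stood on ETS1 lines 758 and 515. Lines 16 and 21 were chr2:48667797-48668286, with GABPA 1823672 bp away, and chr21:45759086-45759586. These sites were on early ELF1 lines and, with the exception of line 1, in both ETS1 lists.

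The ELF1 list was next cut by line number into 5 equal parts, part 1 holding the earliest lines. Every class had peaks in all 5 parts, in unequal numbers. Median lines were 142 for the peaks with GABPA, 114 for those with ETS1 and no GABPA and 158.5 for those in neither list. The median of the whole list was 128.5. The share with GABPA was 48.1% (34.0 to 62.4%), 41.2% (27.6 to 55.8%), 51.0% (36.6 to 65.2%), 56.9% (42.2 to 70.7%) and 62.7% (48.1 to 75.9%) from part 1 to part 5. All 5 intervals overlap. Peaks with ETS1 and no GABPA numbered 25, 25, 24, 20 and 13 over the same parts. The class in neither list had 6 of its 16 peaks in part 5, and 5 of the last 10 lines of the ELF1 list belonged to it, a count taken after the positions were seen.

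**Figure D2:**
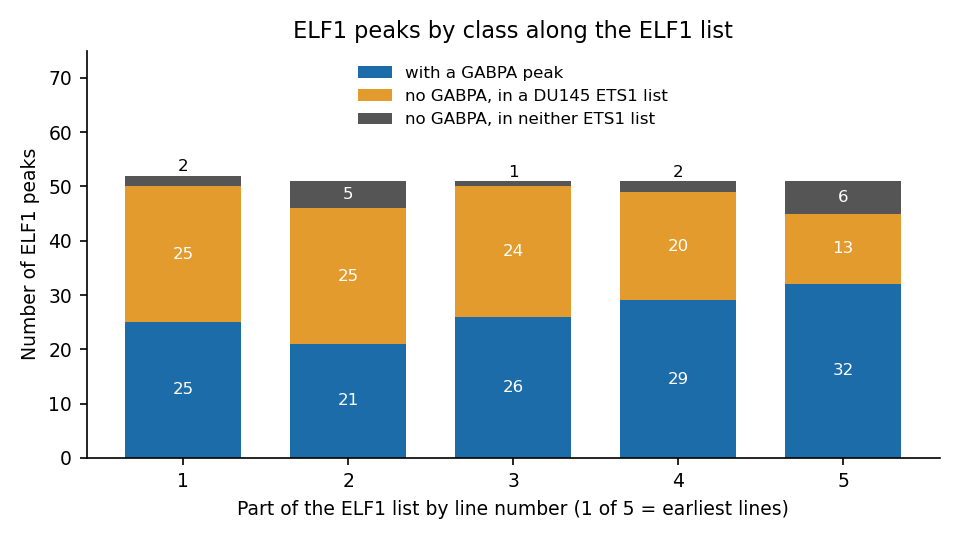
Number of ELF1 peaks in each of 5 equal parts of the ELF1 list by line number, stacked by class. Peaks with GABPA number 25, 21, 26, 29 and 32, so they are spread over the whole list and do not gather in its first lines.

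Line numbers of sites shared with GABPA were nearly unrelated. Across the 133 shared peaks Spearman's rho of the ELF1 and GABPA lines was 0.08. It was 0.14 with the first ETS1 list (236 peaks), 0.11 with the second (223 peaks) and 0.43 with ELK4 (25 peaks). These are correlations across peaks of single samples, given as a description. Seen from GABPA, the peaks with ELF1 had a median line of 1076 against 1248 for those without. The share of GABPA peaks with ELF1 was 7.26% (5.13 to 9.91%) in part 1 of 5 of the GABPA list and 4.44% (2.81 to 6.65%) in part 5, and these intervals overlap.

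Order in the ETS1 lists did go with the classes. In the second ETS1 list of 9306 peaks, those that met both ELF1 and GABPA had a median line of 1295 (128 peaks), and those with ELF1 and no GABPA 2860 (95 peaks). Peaks with GABPA and no ELF1 had a median of 2338 (2157 peaks), and those with neither 5569.5 (6926 peaks). The first ETS1 list gave the same order, with medians of 1278, 3237, 2450.5 and 5904.5. Its regions were also wider where both factors were present, with a median of 1549 bp against 1298 bp for ELF1 without GABPA, 1342 bp for GABPA without ELF1 and 1082 bp for neither. A wide region meets another list more easily, and the part this plays in the overlaps was not tested.

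Within the second ETS1 list, the share with GABPA was also compared between ETS1 peaks with and without ELF1, in 5 equal parts by line number. In part 1, 79 of 110 such peaks had GABPA, or 71.8% (62.4 to 80.0%), against 49.3% (46.9 to 51.6%) of 1752 ETS1 peaks without ELF1. In part 2 the shares were 54.5% (40.6 to 68.0%) and 37.1% (34.9 to 39.4%). They were 35.9% (21.2 to 52.8%) and 20.4% (18.5 to 22.3%) in part 3, where the intervals overlap. Parts 4 and 5 held 11 and 8 ETS1 peaks with ELF1, of which 4 and 1 had GABPA, beside 9.89% (8.57 to 11.3%) and 3.78% (2.96 to 4.75%) of those without ELF1. With so few peaks their intervals, 10.9 to 69.2% and 0.316 to 52.7%, overlap those of the others. In the first ETS1 list the share was higher with ELF1 in parts 1 to 4, but in part 5 it was 0 of 7 against 4.78% of 1989 without. No test was made of these values, because the association between the lists at ETS1 sites was known before the members were chosen.

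**Figure D3:**
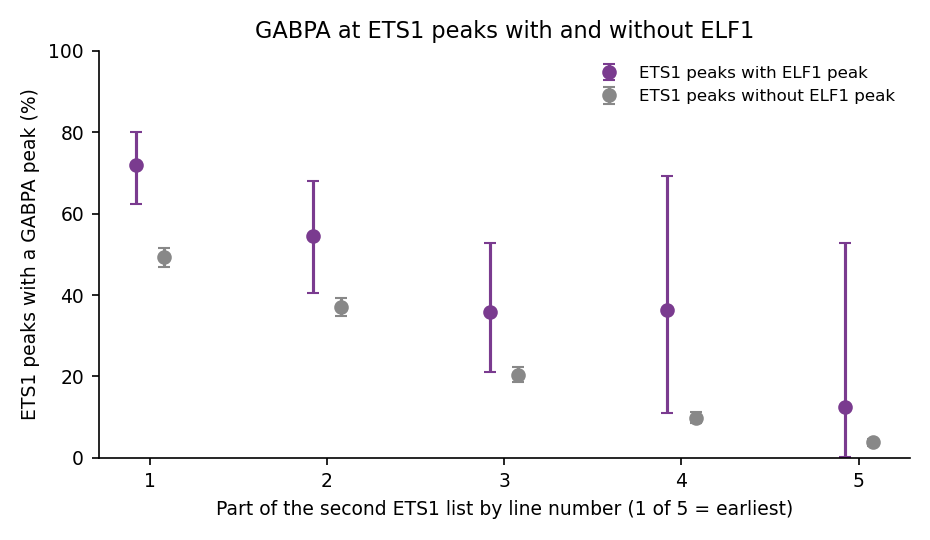
Share of peaks of the second DU145 ETS1 list that meet a GABPA peak, in 5 equal parts of that list by line number, for ETS1 peaks with an ELF1 peak and without one; bars are 95% Clopper-Pearson intervals over peaks. Both series are lower in part 5 than in part 1, at 12.5% against 71.8% with ELF1 and at 3.78% against 49.3% without.

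ELK4 was more frequent at the ELF1 peaks that also had GABPA. It was present at 21 of 133 ELF1 peaks with GABPA, 15.8% (10.0 to 23.1%), and at 4 of 123 without, 3.25% (0.893 to 8.12%). By Fisher's exact test (two-sided) the odds ratio was 5.55, with an interval of 1.79 to 22.9 and a Benjamini-Hochberg adjusted p of 0.00253 over 8 tests. The background share over the second ETS1 list was 2.65%. It pools ETS1 peaks with and without GABPA, so it is matched to neither class of ELF1 peaks. Among ELK4 peaks without ELF1, 149 of 312 met GABPA, 47.8% (42.1 to 53.5%), so ELK4 and GABPA also coincided outside the ELF1 list. From the GABPA side, ELK4 was at 22 of 133 peaks with ELF1, 16.5% (10.7 to 24.0%), and at 148 of 2345 without, 6.31% (5.36 to 7.37%; odds ratio 2.94, 1.72 to 4.84, exact test, adjusted p = 5.01e-04). Sites with all 3 factors stand in both tests, so the second is not independent of the first. Neither difference passed the threshold among the earlier lines of every list (adjusted p = 0.583 and 0.108, Fisher's exact test), where 4 of 31 shared sites held ELK4, or with GABPA cut to 256 lines.

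The position in the ETS1 list was looked at beside this result. Of ELF1 peaks in part 1 of the second ETS1 list, 14 of 79 with GABPA had ELK4, 17.7% (10.0 to 27.9%), and 0 of 31 without, where 3 counts, taken as the floor, would be 9.68%. In parts 2 to 5 the counts were 7 of 49, 14.3% (5.94 to 27.2%), and 2 of 64, 3.13% (0.381 to 10.8%). Outside the second ETS1 list the direction was the opposite, with 0 of 5 with GABPA and 2 of 28 without, 7.14% (0.877 to 23.5%), both of them small counts.

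The 21 ELF1 peaks with both GABPA and ELK4 lay on 16 chromosomes, and 2 of them also held JUND. The site at chr14:50100435-50100934 was the single ELF1 peak that met every other list. It stood on line 131 for ELF1, 130 for GABPA, 79 for ELK4, 441 for JUND and 84 and 215 for the ETS1 lists, and it met a PANC1 ETS1 peak, whose list is ordered by chromosome. At chrX:77359268-77359754 the other centres lay close to that of ELF1, with GABPA at 1.5 bp, ELK4 at 35 bp and JUND at 45 bp, on line 3 for ELF1, 1471 for GABPA, 21 for ELK4 and 3 for JUND. This was the sole ELF1 peak on chromosome X. A close pair lay on chromosome 12, at 6772189-6772684 and 6798426-6798925, 25741 bp apart. Both held GABPA and ELK4, on lines 22 and 4 of the GABPA list.

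Without GABPA, ELK4 met ELF1 at 4 sites. These were line 1 on chromosome 21, chr10:99496776-99497276, chr12:51632429-51632909 and chr1:201368241-201368738. The last is in neither ETS1 list, and its ELK4 centre was 311 bp from that of ELF1.

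For JUND and PANC1 ETS1 no difference between ELF1 peaks with and without GABPA was detected. JUND was at 4 of 133 peaks with GABPA, 3.01% (0.825 to 7.52%), and at 6 of 123 without, 4.88% (1.81 to 10.3%) (exact odds ratio 0.606, 0.123 to 2.63, adjusted p = 0.898). The background over the second ETS1 list was 4.41%. PANC1 ETS1 peaks were at 3 and 2 of them, 2.26% (0.468 to 6.45%) and 1.63% (0.198 to 5.75%), beside a background of 3.11% (odds ratio 1.39, 0.157 to 17.0, exact test, adjusted p = 1). GABPA peaks with and without ELF1 gave odds ratios of 1.27 (0.329 to 3.51) for JUND and 0.879 (0.174 to 2.75) for PANC1 ETS1, adjusted p = 0.898 and 1 by the same exact test. Intervals this wide do not show that the shares are alike.

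**Figure D4:**
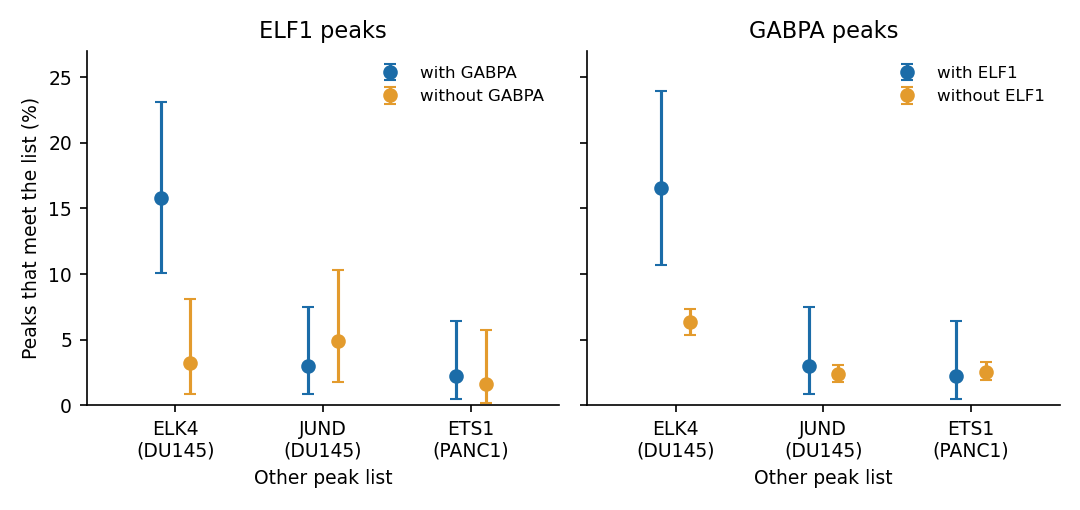
Share of peaks that meet the ELK4, JUND or PANC1 ETS1 list, for ELF1 peaks with and without GABPA (left) and for GABPA peaks with and without ELF1 (right); bars are 95% Clopper-Pearson intervals over peaks. ELK4 stands at 15.8% against 3.25% on the left and at 16.5% against 6.31% on the right, while the intervals for the other lists overlap.

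Each JUND site can be placed. With GABPA they were the chromosome X and chromosome 14 sites above, chr19:1275498-1275987 and chr11:64037301-64037801. With ETS1 and no GABPA they were line 19 on chromosome 12, chr12:56122749-56123221, chr2:198317954-198318399 and chr11:62608881-62609378. The last was on line 80 for ELF1 and was the first line of the JUND list, and it stood on lines 6 and 4 of the ETS1 lists and met a PANC1 ETS1 peak. It had a GABPA centre 1944 bp away. The other JUND sites were a pair on chromosome 21 in neither ETS1 list. A PANC1 ETS1 peak without JUND was present at line 13 on chromosome 17, line 14 on chromosome 2 and chr11:809379-809874.

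All 16 ELF1 peaks in neither ETS1 list and without GABPA can be named. The earliest in the list were the pair on chromosome 21, at 39755337-39755837 (line 35) and 39817151-39817641 (line 47), 61313 bp apart. Each coincided with a JUND peak, with centres 19 and 9.5 bp away, on lines 12 and 581 of the JUND list. The nearest ETS1 peaks of DU145 were far off, at 422236.5 and 360427.5 bp in the second list, and GABPA lay 1115611 and 1177420 bp away. Whether these positions lie in exons was not examined, since no hg19 annotation was used here, and this limits what these sites can be read as. No other ELF1 peak in this class held JUND, and 2 of 16 is 12.5% (1.55 to 38.3%).

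The others stood apart from every list but, in 1 case, ELK4, and whether they lie in exons was not examined either. They were chr17:33446700-33447199, chr8:124553384-124553877, chr17:37886630-37887129, chr4:6576602-6577075, chr12:12022271-12022761, chr19:46498223-46498710, chr11:67029921-67030421, chr19:45681620-45682118, chr13:114319568-114320050, chr14:105525571-105526070, chr12:72111482-72111976, chr16:85099557-85100052 and chr4:7024267-7024749, beside the ELK4 site on chromosome 1. Some were not far from ETS1. The chromosome 11 site lay 3835.5 bp and chr17:37886630-37887129 lay 8419.5 bp from a centre of the first ETS1 list. Over the 16 peaks the distance to that list had a median of 66425 bp and a maximum of 422366.5 bp. PANC1 ETS1 peaks met 0 of the 16, where the floor of 3 counts would be 18.8%.

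By chromosome, ELF1 peaks were most frequent on 19 (25 peaks), 17 (22) and 1 (20), and Y held none. The GABPA list had its highest counts on 19 (249), 1 (239) and 17 (163). Peaks with GABPA made up 16 of the 25 on chromosome 19, 13 of 22 on chromosome 17 and 10 of 20 on chromosome 1. On chromosome 9 they were 11 of 14 and on chromosome 5 they were 5 of 6. On chromosome 4 none of the 6 ELF1 peaks met any of its 61 GABPA peaks, with 4 in an ETS1 list and 2 in neither. The counts on chromosomes 13 and 21 were 1 of 6 and 1 of 5. ELF1 and GABPA took unlike shares of a few chromosomes, such as 18 (3.13% of ELF1, 1.45% of GABPA) and 3 (1.56% and 5.29%). Most chromosomes hold too few ELF1 peaks for a comparison, and none was tested.

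**Figure D5:**
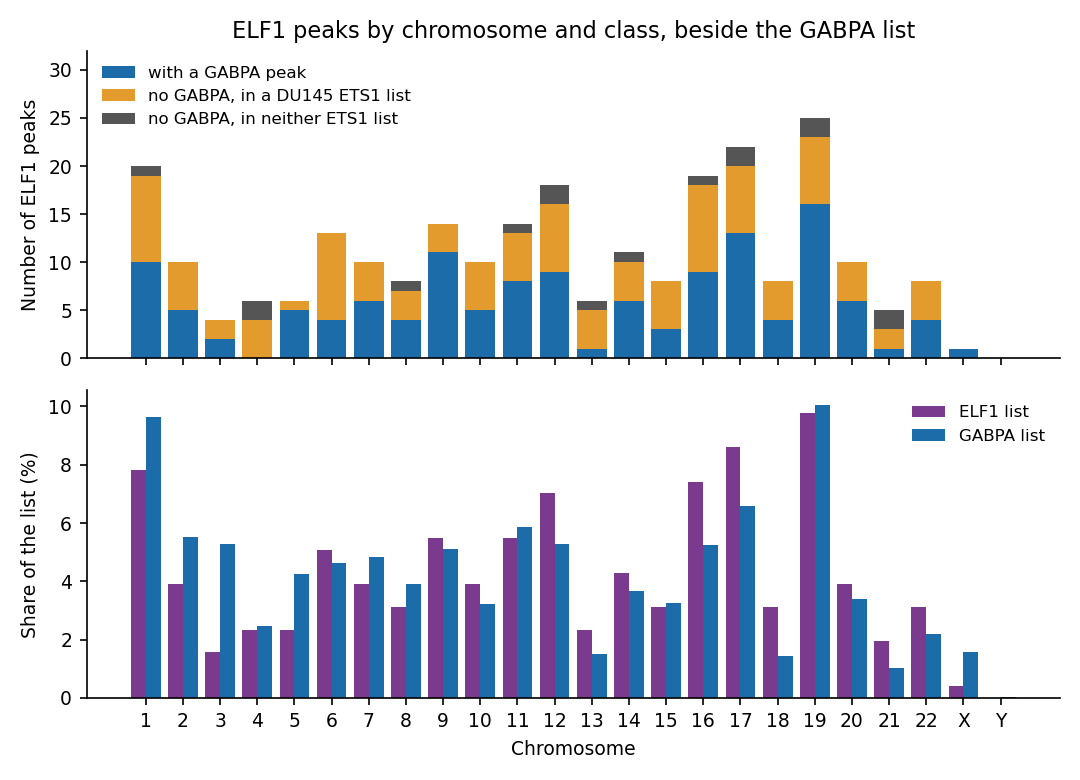
Top, number of ELF1 peaks per chromosome, stacked by class; bottom, share of the ELF1 and of the GABPA list on each chromosome, in percent. Chromosome 19 holds the most peaks of both lists, and chromosome 4 is the one with several ELF1 peaks and none shared with GABPA.

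Neighbouring ELF1 peaks did not all share a class. There were 15 pairs of adjacent ELF1 peaks at most 100000 bp apart. In 9 of them (60.0%) the peaks differed in class, beside 55.4% of all pairs of ELF1 peaks that differ in any class. All 9 had GABPA at 1 peak and ETS1 without GABPA at the other. Of the rest, 3 pairs both had GABPA, 2 both had ETS1 and no GABPA, and the chromosome 21 pair was in neither list. The closest pairs were both mixed. On chromosome 17, the GABPA-bound peak at 80408358-80408847 lay 7040 bp from one at 80415888-80416387 that stood on ETS1 lines 1595 and 1406 without GABPA. On chromosome 18, a peak with GABPA at 55288836-55289335 lay 8053 bp from one without at 55297389-55297880.

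ELK4, the list most like ELF1 in length, served as a comparison. Of its 337 peaks, 170 met GABPA (50.4%, 45.0 to 55.9%), 117 an ETS1 list and no GABPA (34.7%, 29.6 to 40.1%) and 50 neither (14.8%, 11.2 to 19.1%). With sites in both lists left out, GABPA was at 48.5% (41.9 to 55.1%) of 231 ELF1 peaks and 47.8% (42.1 to 53.5%) of 312 ELK4 peaks. The class with neither GABPA nor ETS1 took 6.49% (3.68 to 10.5%) of these ELF1 peaks and 15.7% (11.9 to 20.2%) of these ELK4 peaks, and its intervals do not overlap. This pair of comparisons was added after the classes had been counted and uses the overlaps that define them, so both are given as a description, and their p-values, counted among the 8 adjusted above, are not read as tests.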

How the data were processed

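Per the labels, the 7 deposited lists come from 6 ChIP-seq samples. The authors' files hold 3 columns, namely chromosome, start and end, with no other measure. The submitters' processing notes name build hg19 and Bowtie2 2.0.6. How peaks were called, at which threshold, against which input and with what pooling is stated in none of the sources used here, and such choices set how many peaks a list holds.

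Starts were counted from 1. Overlap, distance and line number came from Python 3.11.15 with SciPy 1.17.1 and NumPy 2.4.6. Matplotlib 3.10.9 drew the plots. The overlap and test steps were tested on simulated data. Fisher's exact test compared disjoint sets of peaks, with p-values adjusted by Benjamini-Hochberg over 8 tests. The members, classes and tests were chosen with earlier results of these data known. Named loci were all peaks in neither ETS1 list, the first 10 lines of the other classes, sites in most lists, and those nearest to or farthest from GABPA. Other loci were named after their values were seen. An hg19 genome or annotation was not used here, so planned comparisons of transcript starts, motifs and gene lists were not made, and loci are given by position. The 2 inputs were not analysed here.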

Additional observations from a re-analysis of the deposited data

How the results depend on the processing

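Results were recomputed under 9 other settings, giving 87 values. Of these, 67 kept their direction and their side of the threshold or stayed near the reported value. Class sizes were judged here by count and not by share. Settings on overlap were 50% of the shorter interval, centres within 200 bp, intervals within 500 bp and windows of 500 bp. The others were earlier lines of every list (PANC1, ordered by chromosome, was kept whole), GABPA cut to its first 256 lines, and the first, the second or both ETS1 lists. With earlier lines, 31 of 128 ELF1 peaks had GABPA (24.2%, and 2.50% of GABPA peaks had ELF1). ETS1 without GABPA was at 73 of 128 (48.0 to 65.7%), against 107 of 256 (35.7 to 48.1%). In neither ETS1 list and without GABPA were 24 of 128 (12.4 to 26.6%), against 16 of 256 (3.61 to 9.95%). These last intervals do not overlap, yet both counts are among the 67. With the same earlier lines, the odds ratios for ELK4 were 2.70 at ELF1 peaks and 4.01 at GABPA peaks, no longer past the threshold. That for JUND at GABPA peaks turned to 0, and that for GABPA at ELF1 against ELK4 peaks to 0.792. With GABPA cut to 256 lines, 26 ELF1 peaks had GABPA (10.2% of either list) and 212 had ETS1 and no GABPA. The ELK4 odds ratios were then 2.49 and 1.71, not past the threshold. Those for JUND turned to 2.30 at ELF1 peaks and 0.982 at GABPA peaks, and that for PANC1 ETS1 at GABPA peaks to 3.72. With intervals within 500 bp, the odds ratio for PANC1 ETS1 at ELF1 peaks turned to 0.894. No turned value was past the threshold, and both cuts leave fewer shared sites by construction. Out of all 256 ELF1 peaks, the class in neither ETS1 list held 33 with centres within 200 bp. It held 28 with the second ETS1 list alone and 30 with both lists required. Its share was largest with earlier lines, given above, where the ETS1 and GABPA lists were shortened too. No paired analysis was possible because each group has 1 sample. Read depth is unknown, so a peak that is not listed may be a site under the caller's threshold.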
